A study of Mus musculus with 2 samples.

Results

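The genes described here are 55 genes of protein folding in the endoplasmic reticulum (ER), of the unfolded protein response and of the early secretory pathway, taken from 27376 genes of a read count table by matching their symbols to a named list. All 55 were found. RNA came from prostate tumour tissue of 2 mice aged 16 months, 1 of the genotype Met_Bcat and 1 of the genotype Bcat_Only. The heading of the Met_Bcat counts gives no allele, so how MET was altered is not stated. The counts of Bcat_Only are headed Bcat_ex3Plus_PB_Cre, a heading with an allele of the beta-catenin gene and with PB Cre. PB Cre drivers in this field use the probasin promoter, which is active in prostate epithelium. By their names both genotypes share an alteration of beta-catenin and Met_Bcat adds one of MET, but whether the Met_Bcat mouse carried the same allele and driver is not stated.

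Both libraries came from whole tumour tissue with no sort of cell types described, and each genotype was 1 library from 1 mouse. Reads counted in genes numbered 20117724 for Met_Bcat and 19301062 for Bcat_Only. No difference below has a replicate check, none was tested, and every interval is a 95% interval for counting error only. Levels are given as CPM, counts per 1e6 reads of the library after TMM scaling, a scaling by trimmed means of gene ratios. The 2-fold rule used throughout asks that even the end of the interval closest to equality lie 2-fold or more away from it, and it was applied only where the mean of the libraries reached 1 CPM.

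Proteins bound for the cell surface, for secretion or for the lysosome are threaded into the ER through the Sec61 channel, folded there by chaperones and disulfide isomerases, and carried to the Golgi in vesicles. When unfolded proteins build up, the membrane sensors ATF6, IRE1 and PERK set off the unfolded protein response. ATF6 and the spliced XBP1 factor made by IRE1 are known for turning on chaperone and degradation genes, while PERK, through phosphorylation of eIF2-alpha, slows protein synthesis and favours translation of ATF4, which turns on genes of amino acid supply and, through CHOP, of cell death. Prostate epithelium is a secretory tissue, as are plasma cells and collagen-producing fibroblasts, and all of them rely on this machinery.

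The branches are known to act through different promoter elements, and the matches found in the members' promoters are shown because the results below are ordered by these branches. The ER stress element, bound by ATF6 and XBP1 with NF-Y, was searched as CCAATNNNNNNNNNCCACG on both strands of RefSeq promoters (build GRCm38.p6, 250 bases before to 50 after each start). Of 44 members with a promoter there, 10 held at least 1 match, against 0.137% of the 27025 genes in that table. The matched elements, read on the strand that carries the motif and with the fixed letters in capitals, were these.
Hspa5: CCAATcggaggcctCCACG
Hsp90b1 upstream copy: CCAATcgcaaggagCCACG
Hsp90b1 downstream copy: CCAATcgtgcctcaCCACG
Calr: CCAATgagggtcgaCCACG
Canx: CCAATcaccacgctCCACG
Dnajc3: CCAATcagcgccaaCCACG
Creld2: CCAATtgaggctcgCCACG
Pdia6: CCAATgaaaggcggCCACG
Ero1lb: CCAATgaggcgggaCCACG
Syvn1: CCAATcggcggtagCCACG
Derl3: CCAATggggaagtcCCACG

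Hspa5 has the best known of these promoters, and its 250 bases before the start (GRCm38.p6 chr2:34771840-34772089, + strand) are printed with the fixed letters of the element in capitals, together with those of Syvn1 (chr19:6046326-6046575, + strand) and Creld2 (chr15:88819396-88819645, + strand), which were also higher in Met_Bcat.
Hspa5: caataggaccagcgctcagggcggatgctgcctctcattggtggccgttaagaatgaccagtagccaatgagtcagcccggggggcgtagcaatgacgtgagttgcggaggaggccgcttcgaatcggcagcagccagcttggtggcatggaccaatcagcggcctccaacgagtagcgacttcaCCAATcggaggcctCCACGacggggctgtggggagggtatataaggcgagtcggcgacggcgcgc
Syvn1: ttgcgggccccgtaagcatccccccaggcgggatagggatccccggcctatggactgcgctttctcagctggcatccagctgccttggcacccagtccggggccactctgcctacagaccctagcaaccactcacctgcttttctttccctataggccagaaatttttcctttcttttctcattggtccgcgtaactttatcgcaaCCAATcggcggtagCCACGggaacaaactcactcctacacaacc
Creld2: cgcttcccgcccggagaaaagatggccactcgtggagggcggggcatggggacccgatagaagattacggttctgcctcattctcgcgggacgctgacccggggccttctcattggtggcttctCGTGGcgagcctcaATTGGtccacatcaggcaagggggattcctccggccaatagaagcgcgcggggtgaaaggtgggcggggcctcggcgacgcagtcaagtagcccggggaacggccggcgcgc

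Herpud1 (chr8:94386179-94386428, + strand) is shown because its promoter held matches of both branches, the ER stress element II spelled ATTGG, then any 1 base, then CCACG, and the composite site of ATF4 and C/EBP factors searched as TGATGNAA. Asns (chr6:7693210-7693459, - strand) and Chac1 (chr2:119350992-119351241, + strand) show that composite site in ATF4-driven genes, and in Chac1 and Herpud1 it lies on the other strand. Kdelr3 (chr15:79516158-79516407, + strand) shows the core of the XBP1 element, searched as TGACGTGG, on the other strand. It was the member with the lowest ratio of Met_Bcat to Bcat_Only.
Herpud1: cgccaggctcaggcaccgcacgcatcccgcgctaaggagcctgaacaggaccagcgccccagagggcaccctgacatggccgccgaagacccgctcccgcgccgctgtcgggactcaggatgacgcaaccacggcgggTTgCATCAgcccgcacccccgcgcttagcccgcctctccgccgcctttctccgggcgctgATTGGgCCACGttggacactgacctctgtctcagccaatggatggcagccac
Asns: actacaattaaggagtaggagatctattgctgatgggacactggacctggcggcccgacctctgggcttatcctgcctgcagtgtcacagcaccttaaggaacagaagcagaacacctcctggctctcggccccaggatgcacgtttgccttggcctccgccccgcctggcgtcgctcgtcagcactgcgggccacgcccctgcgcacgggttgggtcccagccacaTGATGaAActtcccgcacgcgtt
Chac1: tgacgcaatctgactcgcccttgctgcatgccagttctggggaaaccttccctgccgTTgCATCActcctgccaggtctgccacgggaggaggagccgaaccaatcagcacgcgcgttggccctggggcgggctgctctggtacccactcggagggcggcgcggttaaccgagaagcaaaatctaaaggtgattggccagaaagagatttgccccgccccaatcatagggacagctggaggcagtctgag
Kdelr3: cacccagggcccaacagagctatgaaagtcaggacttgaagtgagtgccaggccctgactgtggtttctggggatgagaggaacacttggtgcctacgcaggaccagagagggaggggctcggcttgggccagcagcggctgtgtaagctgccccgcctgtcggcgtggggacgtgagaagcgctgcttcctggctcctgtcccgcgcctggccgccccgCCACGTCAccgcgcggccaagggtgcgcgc

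Chaperones and part of the degradation machinery were higher in the Met_Bcat tumour library, whereas the PERK/ATF4 branch as a list was not. Of the 54 members that reached a mean of 1 CPM, 9 were higher in Met_Bcat by the 2-fold rule and 3 were lower. The same rule called 4.42% of all 14354 genes higher and 14.6% lower. These shares belong beside every count by this rule below. When the libraries were instead scaled so that the median luminal epithelial marker showed no difference (luminal scaling), 5 members were higher and 5 lower, where 3.01% of 14389 genes were higher and 18.9% lower. With the near end at 1.5-fold, 16 members were higher and 5 lower, where 8.12% of all genes were higher and 19.7% lower. At 4-fold 0 members were higher and 1, Kdelr3, was lower, where 1.75% of all genes were higher and 7.57% lower. The median of the members, as the log2 ratio of CPM plus 0.5, was 0.41, beside 0.03 for all genes, and it was 0.0711 under luminal scaling. All reads of the 55 members made up 2.23% of the Met_Bcat library and 1.31% of the Bcat_Only library. The member left out of the counts is Ern2, and the tested member lowest in expression had a mean of 1.90 CPM, so no member came in through a high value in 1 library alone. Among members just inside the 2-fold rule, the near ends were 2.09-fold lower for Ero1lb and 2.41-fold higher for Creld2, and just outside it they were 1.95-fold higher for Ddit3 and 1.89-fold higher for Ern1.

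**Figure D1:**
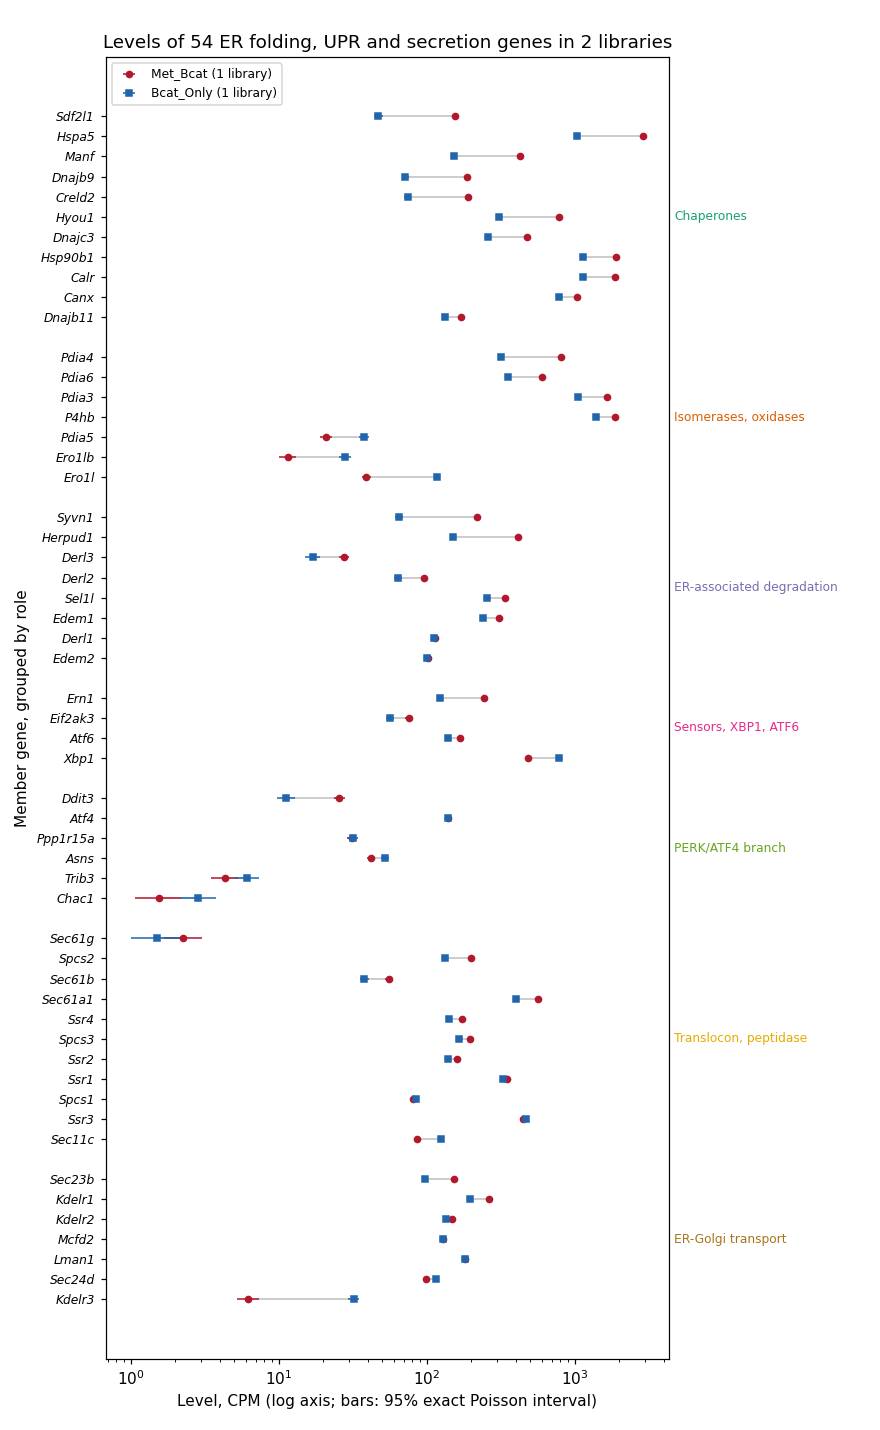
Levels in CPM on a log axis for the 54 members with a mean of at least 1 CPM, in the Met_Bcat library (circles) and the Bcat_Only library (squares), grouped by role, with 95% exact Poisson intervals for counting error. Hspa5 stands at 2888 CPM in Met_Bcat and 1033 CPM in Bcat_Only, and Kdelr3 at 6.26 and 32.2 CPM.

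The chaperones lay on 1 side. Of the 11 chaperones and co-chaperones 6 were higher by the 2-fold rule and 0 lower, and all 11 had ratios above 1 under TMM, total-count and luminal scaling. Their median log2 ratio was 1.33. Hspa5 encodes BiP, the Hsp70 of the ER that binds unfolded chains and holds the sensors inactive (ENSMUSG00000026864, mm9 chromosome 2, 34627490 to 34632051, + strand). It had 60870 reads or 2888 CPM in Met_Bcat and 19030 reads or 1033 CPM in Bcat_Only, 2.80-fold higher (2.75 to 2.84). Its log2 ratio of 1.48 lay above those of 96.7% of genes tested.

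Another 5 chaperones and partners passed the 2-fold rule. Sdf2l1, a luminal partner of the J-domain protein of Dnajb11, had 155 CPM in Met_Bcat and 47.2 CPM in Bcat_Only, 3.29-fold higher (3.06 to 3.55). Manf, an ER protein that binds BiP and can be secreted, had 426 CPM and 154 CPM, 2.77-fold higher (2.65 to 2.89). Its span in the table also holds Rbm15b on the same strand, so its reads are less certain than those of most other members. Dnajb9, a J-domain co-chaperone of BiP, had 187 CPM in Met_Bcat and 72.0 CPM in Bcat_Only, 2.59-fold higher (2.44 to 2.76). Creld2, a secreted protein induced by ER stress, had 191 CPM in Met_Bcat and 74.6 CPM in Bcat_Only, 2.56-fold higher (2.41 to 2.73). Hyou1, the nucleotide exchange factor of BiP, had 782 CPM in Met_Bcat and 311 CPM in Bcat_Only, 2.51-fold higher (2.44 to 2.59). All 5 were thus higher in the Met_Bcat library by amounts close to that of Hspa5.

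The other chaperones differed by less than 2-fold. Dnajc3, a J-domain protein also known to inhibit eIF2-alpha kinases, had 478 CPM in Met_Bcat and 258 CPM in Bcat_Only, 1.85-fold higher (1.79 to 1.91). Hsp90b1, the Hsp90 of the ER, had 1910 CPM and 1144 CPM, 1.67-fold higher (1.64 to 1.70). It shares 977 bases with Gm15344 on the same strand, which had 161 reads in Met_Bcat and 49 in Bcat_Only. Calr, the lectin chaperone calreticulin, had 1871 CPM and 1146 CPM, 1.63-fold higher (1.60 to 1.66). The membrane-bound lectin chaperone Canx, at 1042 CPM in Met_Bcat and 782 CPM in Bcat_Only, and Dnajb11, at 172 CPM and 133 CPM, had the smallest ratios of the role, 1.33-fold (1.30 to 1.36) and 1.29-fold (1.23 to 1.36). Under luminal scaling, which moves every log2 ratio by −0.34, Canx was at 0.07 and Dnajb11 at 0.03.

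Disulfide chemistry split into isomerases that were higher in Met_Bcat and oxidases that were lower. Of 7 members 1 was higher by the 2-fold rule and 2 were lower, and the median log2 ratio of 0.42 turned to −0.07 when the mean was taken. Pdia4, an isomerase that works in the chaperone complex of BiP, had 17071 reads or 810 CPM in Met_Bcat and 5882 reads or 319 CPM in Bcat_Only, 2.54-fold higher (2.46 to 2.61). Pdia6 had 606 CPM and 355 CPM, 1.71-fold higher (1.66 to 1.76). Pdia3, the isomerase that works with the lectin chaperones on glycoproteins, had 1655 CPM and 1052 CPM, 1.57-fold higher (1.55 to 1.60). P4hb, the classical isomerase and also the beta subunit of collagen prolyl 4-hydroxylase, had 1869 CPM and 1400 CPM, 1.33-fold higher (1.31 to 1.36). The 4 isomerases named so far all stood higher in the Met_Bcat library, and Pdia5 did not.

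Ero1l and Ero1lb encode the oxidases that return disulfide isomerases to their active state. Ero1l (ENSMUSG00000021831, mm9 chromosome 14, 45902879 to 45938237, - strand) had 826 reads or 39.2 CPM in Met_Bcat and 2165 reads or 118 CPM in Bcat_Only, 2.998-fold lower (2.77 to 3.25). Ero1lb had 243 reads or 11.5 CPM and 519 reads or 28.2 CPM, 2.44-fold lower (2.09 to 2.86), and with total counts as library sizes it no longer passed the rule. Pdia5 had 20.9 CPM in Met_Bcat and 37.7 CPM in Bcat_Only, 1.80-fold lower (1.60 to 2.04). Within the Met_Bcat library there were 0.0484 reads of Ero1l for each read of Pdia4, and within Bcat_Only 0.368, a proportion 7.61 times lower in Met_Bcat that does not depend on the scaling of the libraries. Fibroblast markers were lower in the same library, 12 of 13 by the 2-fold rule, with a summed level of 1178 CPM in Met_Bcat and 26290 CPM in Bcat_Only and none at 0. The part of fibroblasts in the lower oxidase and Pdia5 levels was not tested, and in whole tissue fewer cells of a type and less RNA per cell cannot be told apart.

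**Figure D2:**
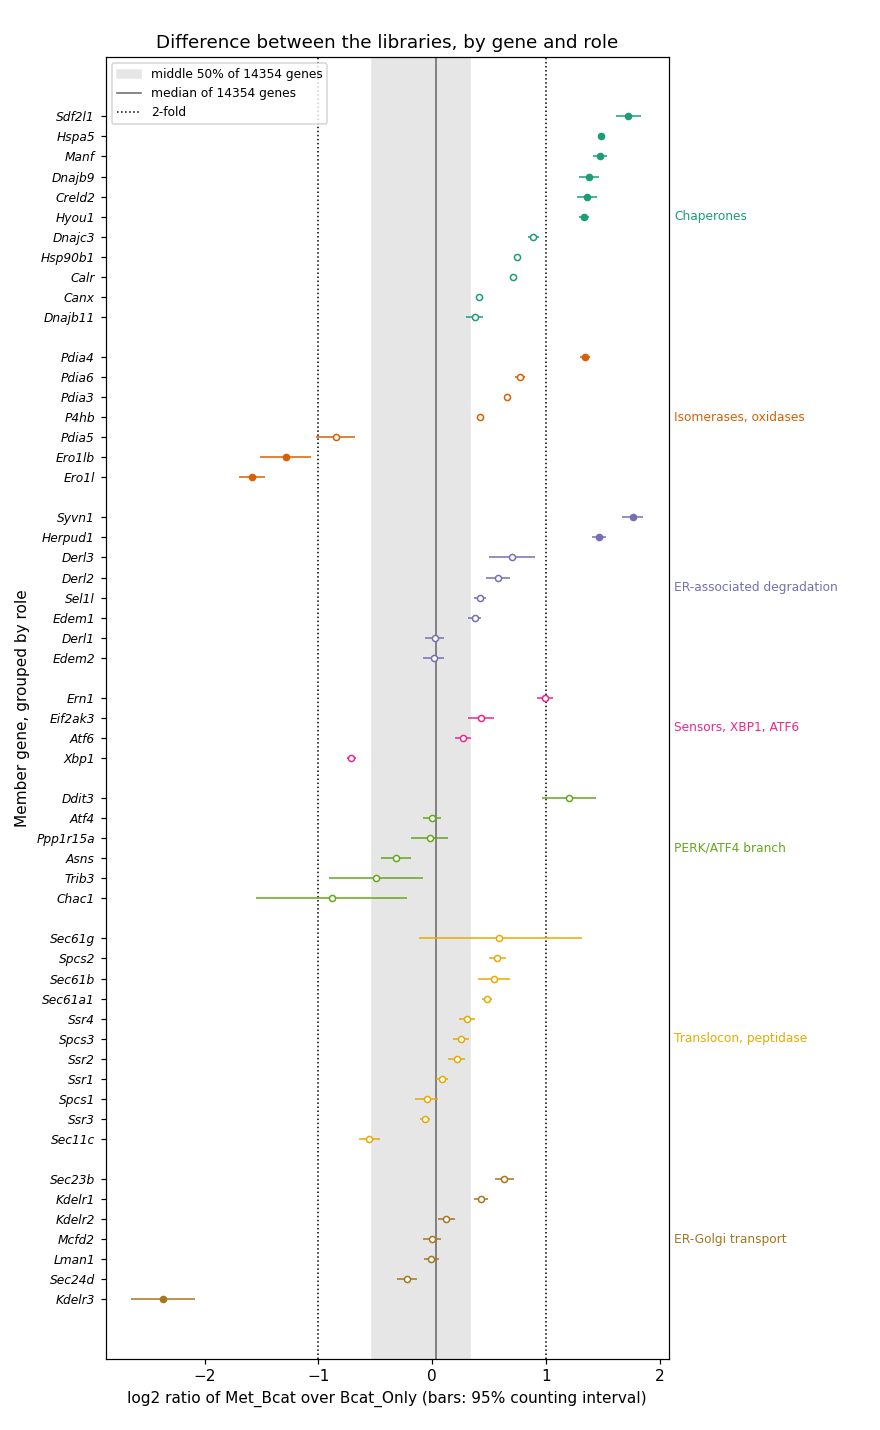
The log2 ratio of Met_Bcat over Bcat_Only for each of the 54 members with its 95% counting interval, grouped by role, where filled points passed the 2-fold rule. The grey band holds the middle 50% of 14354 genes, and the chaperones lie to its right, while the PERK/ATF4 branch lies in or below it except Ddit3 at 1.20.

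ER-associated degradation returns misfolded proteins to the cytosol, where the proteasome takes them apart. Of its 8 members 2 were higher by the 2-fold rule and 0 lower, with a median log2 ratio of 0.50. Syvn1 encodes the ubiquitin ligase HRD1 of the ER membrane (ENSMUSG00000024807, mm9 chromosome 19, 6046576 to 6053712, + strand). It had 4642 reads or 220 CPM in Met_Bcat and 1199 reads or 65.1 CPM in Bcat_Only, 3.38-fold higher (3.18 to 3.61), the highest ratio among the members, with an interval that overlaps that of Sdf2l1. Herpud1, a membrane protein that gathers HRD1 complexes, had 418 CPM and 151 CPM, 2.76-fold higher (2.65 to 2.89). Sel1l, the partner that stabilises HRD1, had 341 CPM in Met_Bcat and 255 CPM in Bcat_Only, only 1.34-fold higher (1.29 to 1.39). Reads of Syvn1 per read of Sel1l were 0.647 in Met_Bcat and 0.255 in Bcat_Only.

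The derlins, membrane proteins of the same pathway, differed among themselves. Derl3, at 27.6 CPM in Met_Bcat and 17.0 CPM in Bcat_Only, was 1.63-fold higher (1.41 to 1.87), and Derl2, at 95.9 CPM and 64.2 CPM, 1.49-fold (1.39 to 1.61). Derl1 had 115 CPM in Met_Bcat and 113 CPM in Bcat_Only, with a log2 ratio of 0.02 (−0.06 to 0.11). Derl3 is also an abundant transcript of plasma cells, and the plasma and B cell markers were lower in Met_Bcat, 9 of 11 tested by the 2-fold rule, at a summed 246 CPM against 890 CPM in Bcat_Only. Of these sums Sdc1 made up 184 CPM in Met_Bcat and 290 CPM in Bcat_Only, while Igj had 15.6 CPM and 418 CPM. The part of plasma cells in the Derl3 level was not tested. Of the mannosidase-like proteins that extract glycoproteins, Edem1 had 309 CPM in Met_Bcat and 239 CPM in Bcat_Only, 1.29-fold higher (1.25 to 1.35). Edem2 had 102 CPM and 101 CPM, with a log2 ratio of 0.01 (−0.08 to 0.10), and the small ratios of Derl1 and Edem2 turned below 0 under luminal scaling.

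Sensors and their factors differed by less than most chaperones. None of the 4 tested members of this role passed the 2-fold rule in either direction, and the median log2 ratio was 0.35. Ern1 encodes IRE1-alpha, the kinase and nuclease that splices Xbp1 RNA. It had 5193 reads or 246 CPM in Met_Bcat and 2284 reads or 124 CPM in Bcat_Only, 1.99-fold higher (1.89 to 2.09). Ern2, the paralog IRE1-beta known from mucus-producing epithelium, had 0 reads in each library, and a floor of 3 reads corresponds to 0.142 CPM in Met_Bcat and 0.163 CPM in Bcat_Only. The exact 95% interval used for the other genes reaches 0.175 CPM in Met_Bcat and 0.2002 CPM in Bcat_Only. Eif2ak3, the PERK gene, had 75.7 CPM in Met_Bcat and 56.3 CPM in Bcat_Only, 1.34-fold higher (1.24 to 1.45). Atf6 had 167 CPM and 139 CPM, 1.20-fold higher (1.14 to 1.27), and its log2 ratio of 0.27 turned to −0.08 under luminal scaling.

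Xbp1 was lower in Met_Bcat. It encodes the factor whose spliced form drives chaperone, degradation and secretory genes (ENSMUSG00000020484, mm9 chromosome 11, 5420662 to 5425896, + strand). It had 10166 reads or 482 CPM in Met_Bcat and 14544 reads or 789 CPM in Bcat_Only, 1.64-fold lower (1.60 to 1.68), and it passed the 2-fold rule under luminal scaling, with a log2 ratio of −1.05. Counts per gene do not separate spliced from unspliced Xbp1, so its splicing was not measured. For each read of Xbp1 there were 5.99 reads of Hspa5 in Met_Bcat and 1.31 in Bcat_Only, and 0.387 reads of Dnajb9 in Met_Bcat and 0.0912 in Bcat_Only. Plasma cells are rich in Xbp1, and in the same libraries the plasma cell gene Igj had 329 reads in Met_Bcat and 7706 in Bcat_Only. Irf4 had 39 and 456, and Tnfrsf17 had 0 and 17. Sdc1, with 3879 and 5342, and Prdm1, with 863 and 953, differed by less. The part of plasma cells, or of any other cell type, in the lower Xbp1 level was not tested.

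In the PERK/ATF4 branch 0 of 6 members passed the 2-fold rule in either direction, and their median log2 ratio was −0.17. That rule called 4.42% of all genes higher and 14.6% lower. Atf4, the factor whose translation PERK favours, had 2942 reads or 140 CPM in Met_Bcat and 2575 reads or 140 CPM in Bcat_Only, with a log2 ratio of −0.0018 (−0.08 to 0.08). ATF4 is controlled mainly at translation, which RNA levels do not show. Ddit3, the CHOP gene, was set apart from the others of the branch. It had 544 reads or 25.8 CPM in Met_Bcat and 207 reads or 11.2 CPM in Bcat_Only, 2.30-fold higher (1.95 to 2.71), and it passed the rule with total counts. It shares 68 bases with Mars on the opposite strand, which had 1557 reads in Met_Bcat and 1475 in Bcat_Only.

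Of the members that ATF4 or CHOP is known to induce, Trib3, Chac1 and Asns had ratios below 1, unlike Ddit3. Trib3, a pseudokinase, had 92 reads or 4.37 CPM in Met_Bcat and 113 reads or 6.13 CPM in Bcat_Only, 1.41-fold lower (1.06 to 1.87). Chac1, an enzyme that breaks down glutathione, had 33 reads or 1.57 CPM and 53 reads or 2.88 CPM, 1.84-fold lower (1.17 to 2.93). Asns, asparagine synthetase, had 42.1 CPM in Met_Bcat and 52.5 CPM in Bcat_Only, 1.25-fold lower (1.14 to 1.37). All of these stood below 1 in ratio under TMM, total-count and luminal scaling, by less than 2-fold at the near end. Ppp1r15a, which brings the phosphatase to eIF2-alpha, had 31.4 CPM in Met_Bcat and 31.9 CPM in Bcat_Only, a log2 ratio of −0.02 (−0.19 to 0.14). Reads of Chac1 per read of Ddit3 were 0.0607 in Met_Bcat and 0.256 in Bcat_Only, and those of Trib3 0.169 and 0.546.

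Set side by side, the 16 ATF6/XBP1-driven chaperones and isomerases had a median log2 ratio of 0.83 and the 6 genes of the PERK/ATF4 branch one of −0.17, a difference of 0.996 on the log2 scale. That set holds the 11 chaperones and the 5 isomerases, without the oxidases. Its limits were a choice. Ero1l and Ero1lb, both lower by the 2-fold rule, were left out, although Ero1lb held an ER stress element. Syvn1 and Derl3, with such elements and ratios above 1, were left out as degradation genes. No median with these genes was computed. Of the 16 genes 7 were higher by the 2-fold rule and 0 lower, and 15 had intervals wholly above 1, with Pdia5 the exception. In the PERK/ATF4 branch 1 interval lay wholly above 1, that of Ddit3, and 3 lay below. Of all 14354 tested genes 5425 had intervals wholly above 1 and 5171 wholly below, and these belong beside both counts. The summed level of the set was 15063 CPM in Met_Bcat and 8320 CPM in Bcat_Only, and that of the branch 245 CPM and 244 CPM. A scaling of the libraries moves both medians by nearly the same amount, so it says nothing about their difference. That difference was 1.497 with the 11 chaperones alone, and 0.83 when 29 other ATF4-driven genes were added to the branch.

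**Figure D3:**
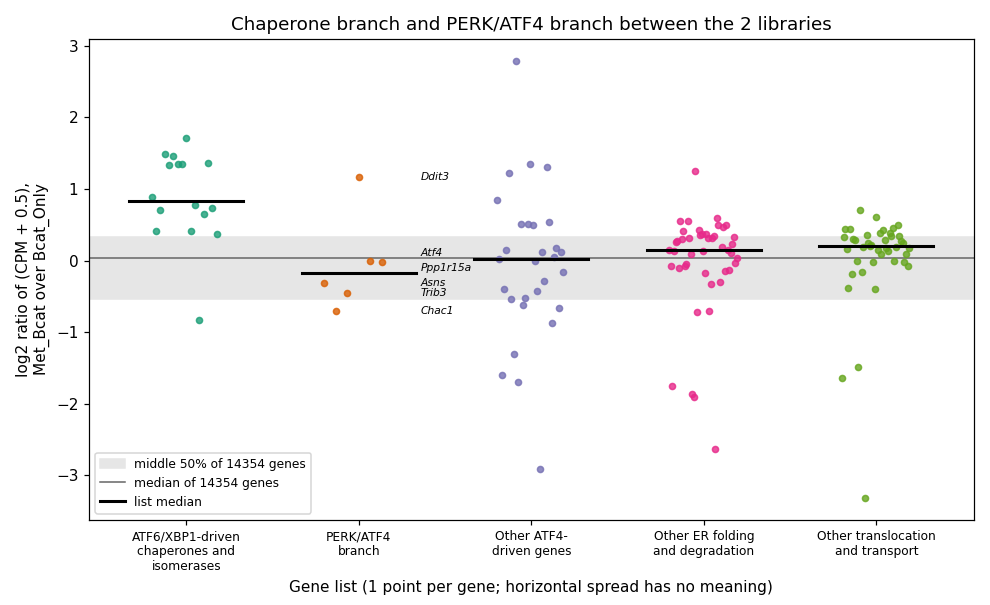
The log2 ratio of CPM plus 0.5, Met_Bcat over Bcat_Only, with 1 point per tested gene in 5 lists and the list median as a black line. The chaperone and isomerase list has its median at 0.83, above the grey band of the middle 50% of all genes, and the PERK/ATF4 branch has its median at −0.17, inside it.

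The translocation machinery differed by little. None of the 11 genes of the Sec61 channel, the TRAP complex and the signal peptidase passed the 2-fold rule or the 1.5-fold rule, and their median log2 ratio of 0.25 turned to −0.09 under luminal scaling. Sec61a1, the channel itself, had 562 CPM in Met_Bcat and 403 CPM in Bcat_Only, 1.39-fold higher (1.35 to 1.44). Its small subunits Sec61b, at 55.4 CPM and 38.0 CPM, and Sec61g, at 48 reads and 28 reads, were 1.46-fold (1.32 to 1.60) and 1.499-fold (0.921 to 2.48). The interval of Sec61g includes no difference. Of the TRAP subunits, which help chains enter the channel, Ssr4 had the largest ratio at 1.23-fold (1.17 to 1.30) and Ssr3 the smallest, with 449 CPM in Met_Bcat and 471 CPM in Bcat_Only, 1.05-fold lower (1.02 to 1.08), a direction that turned with total counts. Ssr2 and Ssr1 lay between them, at log2 ratios of 0.21 and 0.09.

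Signal peptidase, which removes the leader of secreted proteins, had members on both sides. Spcs2 had 199 CPM in Met_Bcat and 134 CPM in Bcat_Only, 1.49-fold higher (1.41 to 1.56), with a pseudogene copy named in the reference that could share its reads. Spcs3 had 196 CPM and 165 CPM, and Spcs1 81.6 CPM and 84.5 CPM. Sec11c, a catalytic subunit, had the lowest ratio of the translocation genes, at 85.7 CPM in Met_Bcat and 126 CPM in Bcat_Only, 1.47-fold lower (1.38 to 1.56).

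ER to Golgi transport had 1 member past the rule, and it had the lowest ratio of Met_Bcat to Bcat_Only of the 54 tested members. KDEL receptors return escaped chaperones such as BiP from the Golgi to the ER. Kdelr3 (ENSMUSG00000010830, mm9 chromosome 15, 79346838 to 79358169, + strand) had 132 reads or 6.26 CPM in Met_Bcat and 593 reads or 32.2 CPM in Bcat_Only, 5.14-fold lower (4.25 to 6.25). It shares 33 bases with Ddx17 on the opposite strand. Kdelr1 had 265 CPM in Met_Bcat and 198 CPM in Bcat_Only, 1.34-fold higher (1.29 to 1.40), and Kdelr2 148 CPM and 136 CPM, 1.09-fold higher (1.03 to 1.15). Per length of exon, Kdelr3 made up 1.96% of the summed level of the 3 receptors in Met_Bcat and 11.3% in Bcat_Only. The fibroblast markers were lower in the same library, and for each read of the fibroblast collagen gene Col1a1, which had 6614 reads in Met_Bcat and 112944 in Bcat_Only, there were 0.0200 reads of Kdelr3 in Met_Bcat and 0.00525 in Bcat_Only. The part of fibroblasts in the Kdelr3 level was not tested.

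The coat genes differed by less than 2-fold in opposite directions, and the cargo receptor genes lay near no difference. Sec23b, an inner coat subunit of the vesicles that leave the ER, had 152 CPM in Met_Bcat and 98.3 CPM in Bcat_Only, 1.55-fold higher (1.46 to 1.64). Sec24d, a cargo-binding coat subunit, had 99.9 CPM and 117 CPM, 1.17-fold lower (1.10 to 1.24). Lman1 and Mcfd2 form a cargo receptor known for carrying coagulation factors. Lman1 had 181 CPM in Met_Bcat and 183 CPM in Bcat_Only, and Mcfd2 had 130 CPM in each, with log2 ratios of −0.01 (−0.08 to 0.06) and −0.0034 (−0.08 to 0.08). The median of the 7 transport genes was −0.0034, and it was 0.13 with total counts and −0.35 under luminal scaling.

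Per kilobase of exon, the order of the members was similar in the libraries, with a Spearman correlation of 0.93 across 54 members, given as a description of genes measured in the same libraries. In Met_Bcat the highest was Hspa5 at 822 CPM per kilobase, ahead of P4hb at 653, Calr at 649.6 and Pdia3 at 527. P4hb and Calr were close to each other there, with intervals of their CPM that overlap. In Bcat_Only P4hb stood highest at 489, with Calr at 398, Pdia3 at 335 and Hspa5 at 294. Hspa5 was thus 1st in Met_Bcat and 4th in Bcat_Only, and Syvn1 30th and 45th, Sdf2l1 13th and 26th, and Dnajb9 19th and 30th. Ero1l was 49th in Met_Bcat and 38th in Bcat_Only, and Kdelr3 50th and 39th. Pdia4 made up 19.4% of the summed level per kilobase of the 5 isomerases in Met_Bcat and 12.04% in Bcat_Only, while P4hb made up 38.9% and 45.8%.

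The wider pathway lists, which hold no members, gave further values. The 2-fold rule called 4.42% of all genes higher and 14.6% lower. Of 45 other tested ER folding and degradation genes 1 was higher by it and 4 were lower, with a median log2 ratio of 0.14. Dnajc10, a reductase with a J domain that works with BiP in degradation, had 1298 CPM in Met_Bcat and 544 CPM in Bcat_Only, 2.39-fold higher (2.33 to 2.44). The lower genes were the selenoprotein gene Selm at 6.75-fold (5.48 to 8.37), the prolyl isomerases Fkbp14 at 3.90-fold (3.31 to 4.62) and Fkbp7 at 3.82-fold (3.18 to 4.61), and the sulfhydryl oxidase Qsox1 at 3.39-fold (3.17 to 3.63).

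By the 2-fold rule, which called 4.42% of all genes higher and 14.6% lower, 4 of 29 other tested ATF4-driven genes were higher and 4 lower. Their median log2 ratio was 0.02. Higher in Met_Bcat were Cth, an enzyme of cysteine synthesis, with 189 reads against 16 in Bcat_Only or 10.3-fold (6.20 to 18.4), the glycyl-tRNA synthetase gene Gars at 2.54-fold (2.47 to 2.62), the secreted factor gene Stc2 at 2.50-fold (2.28 to 2.75) and Pycr1, of proline synthesis, at 2.37-fold (2.09 to 2.70). Lower were Jdp2 at 8.43-fold (6.65 to 10.8), the stress genes Ddit4 at 3.28-fold (2.99 to 3.60) and Nupr1 at 3.06-fold (2.79 to 3.35), and the factor Cebpb at 2.48-fold (2.31 to 2.67). Of 13 other sensors and membrane-bound factors 0 were higher and 1 lower, Creb3l1, a factor known for collagen secretion by bone cells, with 8.97 CPM in Met_Bcat and 66.1 CPM in Bcat_Only or 7.37-fold lower (6.31 to 8.63). Of 42 other translocation and transport genes 0 were higher and 3 lower, Sec16b at 17.8-fold (9.97 to 35.1), Copz2 at 3.22-fold (2.76 to 3.77) and Tram2 at 2.85-fold (2.53 to 3.22), and the median was 0.20.

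Epithelial markers were present in both libraries, as the label of prostate tumour tissue requires, and the other markers were unequal between them. Krt8 had 373 CPM in Met_Bcat and 274 CPM in Bcat_Only, Krt18 1026 CPM and 809 CPM, and Krt5 762 CPM and 157 CPM. Other markers of the same lists went the other way. Epcam had 325 CPM in Met_Bcat and 381 CPM in Bcat_Only, Cdh1 744 CPM and 890 CPM, and basal Krt15 10.9 CPM and 118 CPM. Of 13 luminal markers 8 had intervals wholly above 1 and 4 below, and of 10 basal markers 8 and 2. Among all 14354 genes 5425 lay above and 5171 below. By the 2-fold rule 4 of 13 luminal markers were higher and 1 lower, and 5 of 10 basal markers were higher and 1 lower, with summed levels of 6292 CPM in Met_Bcat and 3838 CPM in Bcat_Only for the luminal and 2415 CPM and 1227 CPM for the basal list. All 12 macrophage, 11 neutrophil, 8 smooth muscle and 6 seminal vesicle markers were lower, with Cd163, Elane, Svs3a and Svs6 at 0 reads in Met_Bcat. The part of the higher epithelial markers in the higher members was not tested. Under luminal scaling Hspa5, Sdf2l1, Manf, Herpud1 and Syvn1 passed the 2-fold rule, and Dnajb9, Creld2, Hyou1 and Pdia4 did not.

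**Figure D4:**
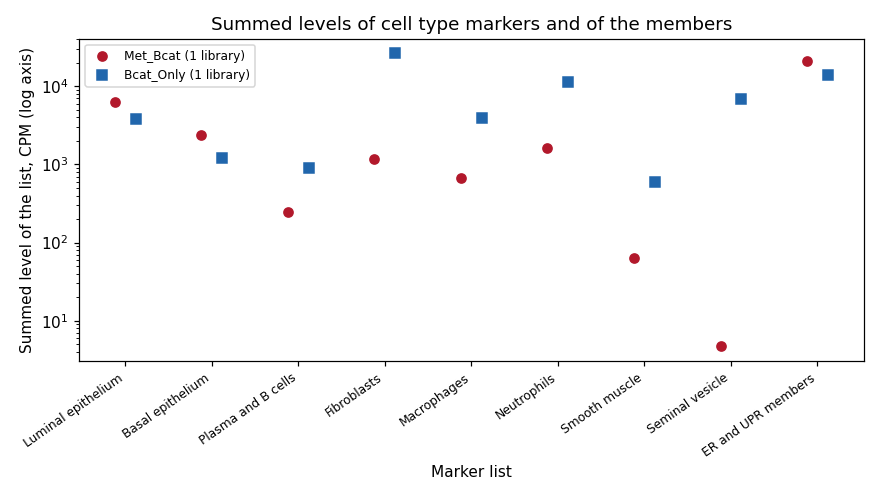
Summed level in CPM, on a log axis, of each cell type marker list and of the 55 members, in the Met_Bcat library (circles) and the Bcat_Only library (squares), 1 library each. Luminal, basal and member sums are higher in Met_Bcat, the members at 21257 CPM against 13748 CPM, and the sums of the other marker lists are lower.

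The promoter matches were then read against these values. The 10 members with an ER stress element had log2 ratios, here of CPM plus 0.5, from −1.25 (Ero1lb) to 1.75 (Syvn1) with a median of 0.75, 3 of them higher by the 2-fold rule and 1 lower. The 34 tested members with a promoter but no match had a median of 0.37, 4 of them higher and 2 lower. Creld2, Hspa5 and Syvn1 were the higher genes with a match, and Sdf2l1, Dnajb9 and Pdia4 had none in the window, which says only that these letters are absent from it. The matches lay from 26 to 212 bases before the start, and Hsp90b1 held 2 of them. The ER stress element II was matched in Herpud1 and Dnajb11, against 0.0444% of all genes in that table.

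The composite ATF4 site was matched in 5 members, Asns, Chac1, Trib3, Herpud1 and Kdelr1, against 4.51% of all genes. The 3 of these in the PERK/ATF4 branch, Asns, Chac1 and Trib3, were the lower genes of that branch, while Ddit3, Atf4 and Ppp1r15a had no match in the window. The XBP1 core was matched in Kdelr3 and Sec24d, against 0.714% of all genes, and both had ratios below 1 in Met_Bcat. A match is a description of letters and not of binding, and none of the 4 kinds of match overlapped another in these promoters, although the ER stress element, its form II and, on the other strand, the XBP1 core share the letters CCACG.

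**Figure D5:**
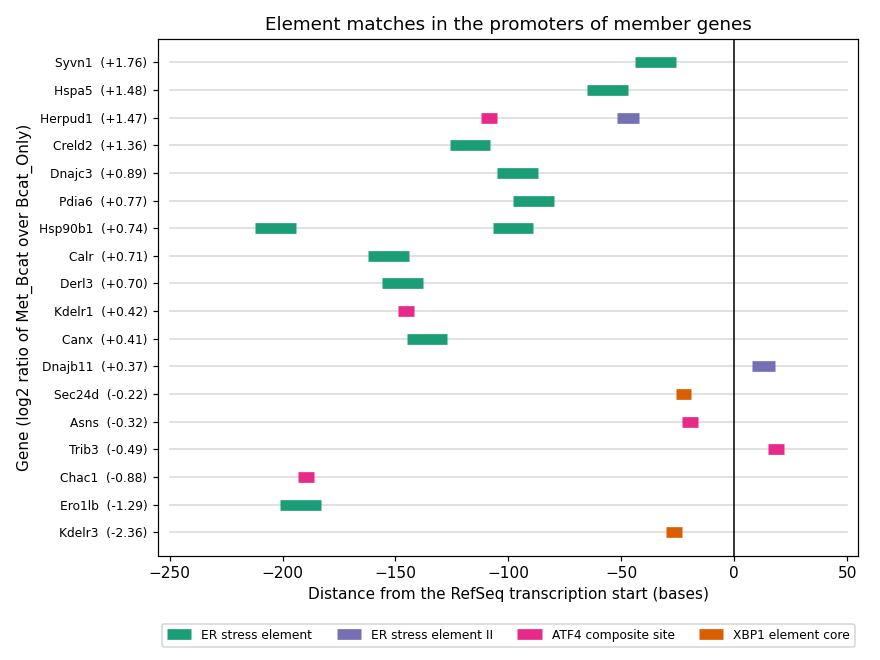
Positions of element matches in bases from the RefSeq start for the 18 members with at least 1 match, ordered by log2 ratio of Met_Bcat over Bcat_Only, which stands beside each name without the added 0.5 CPM. ER stress elements fall in 9 genes with positive ratios and in Ero1lb at −1.29, and the ATF4 composite site in 3 genes with negative ratios and in Herpud1 at 1.47 and Kdelr1 at 0.42.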

How the data were processed

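The authors deposited unnormalised integer counts of reads for 27376 mouse genes with symbols, mm9 coordinates and exon lengths, per the file headers. TopHat2 version 2, HTSeq, edgeR and the build mm9 appear in the submitters' processing notes. How reads were assigned and with which strand setting is not given, so reads of genes overlapping on opposite strands cannot be assigned with certainty. Per the labels' protocols, 200 ng of total RNA entered a stranded mRNA kit with 10 PCR cycles, and sequencing gave 51-base reads from 1 end.

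Library sizes were scaled by TMM (edgeR 4.0.16, R 4.3.3). Ratios of Met_Bcat to Bcat_Only carry exact Clopper-Pearson intervals conditional on the summed reads (scipy 1.17.1), and list medians use a pseudocount of 0.5 CPM. Reads that carry no molecular identifier can be PCR copies, so intervals and the floor of 3 reads cover counting error only. With 1 library per genotype no p-value was computed. The procedure was run on simulated Poisson counts with the same library sizes. These hold no variation between mice or tissue samples, so they check only the handling of counting error. Alternatives were total counts, DESeq2 1.42.0 size factors, scaling to 13 luminal markers, minimums of 0.2 and 10 CPM, pseudocounts of 0.1 and 2 CPM, and near ends of 1.5-fold and 4-fold.

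The members, the gene lists and the alternatives were chosen with earlier results of these data known. The rule for named genes took all members, up to 4 genes of each other list and 7 cell type markers, of which Mzb1 was unmatched. Genes of the pathway lists beyond 4, and other markers, were named after their values were seen. Of 278 listed genes 4 symbols were unmatched. Promoters and the search for motifs come from RefSeq on GRCm38.p6, and 11 members have no entry there: Manf, Hyou1, Derl1, Atf6, Ern2, Sec61a1, Ssr2, Spcs3, Sec11c, Kdelr2 and Lman1.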

Additional observations from a re-analysis of the deposited data

How the results depend on the processing

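No paired analysis was possible because each genotype has 1 library. Total counts in place of TMM add 0.13 to each log2 ratio, and luminal scaling moves it by −0.34. Members higher by the 2-fold rule numbered 9, with 11 under total counts and 5 under luminal scaling. The lower members numbered 3, with 2 under total counts and 5 under luminal scaling. With the near end at 1.5-fold 16 were higher and 5 lower, and at 4-fold 0 were higher and 1 lower. The share of all genes called was not computed under total counts, so the 11 and 2 cannot be read against one. The median of all members was 0.55 with total counts, 0.0711 under luminal scaling and 0.34 as a mean. That of the chaperones and isomerases was 0.96 with total counts and 0.48 under luminal scaling. That of the PERK/ATF4 branch was −0.0357 with total counts, −0.51 under luminal scaling, −0.0122 with a minimum of 10 CPM, −0.0549 as a mean and −0.31 without Ddit3, its farthest member. The difference between the branches was 0.84 with a minimum of 10 CPM, where Trib3 and Chac1 drop out, 1.497 with the 11 chaperones alone and 0.83 with the other ATF4-driven genes. Under luminal scaling the translocation median turned to −0.0914. With TMM scaling, the mean of the isomerases and oxidases in place of their median was −0.0682. With total counts 6 single genes near no difference changed sign, and 8 did under luminal scaling, 0 of them past the rule. DESeq2 size factors changed no call. Reads were few for Chac1, Trib3 and Sec61g, with at most 113 in either library. Sec61g stood at 0.932 CPM per kilobase in Met_Bcat and 0.622 in Bcat_Only, where its partner Sec61b stood at 43.6 and 29.9. The reason for the low level of Sec61g was not tested, so its ratio is uncertain beyond its counting interval.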
